A study of Mus musculus with 2 samples.

Results

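Histone variants are forms of the core and linker histones that are made both in and outside S phase, from polyadenylated messages. The 10 variant genes described here are H3f3a and H3f3b (histone H3.3), H2afx, H2afz, H2afv, H2afy and H2afj (variants of H2A), H1f0 and H1fx (linker histones) and Cenpa (the centromeric H3). They were chosen by name and were 10 of the 43346 Ensembl genes in the deposited tables, with 39 annotated transcripts. The cells were erythroblasts, the nucleated precursors of red cells, taken from mouse fetal liver as primary cells that carry the red cell lineage antigen Ter119, and their poly(A) RNA was sequenced from both fragment ends. The embryos were 14.5 days old, male and female were pooled, and the labels name no strain, genotype or treatment. The only group holds 2 libraries, named library 1 and library 2 after their numbers as biological replicates in the labels. They share a donor entry but not a biosample, so a difference between them may be technical, and there was no condition to compare. The p-values set that difference against counting error only, with no estimate of the spread between replicates.

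Replication-dependent histone genes lie in clusters, are transcribed in S phase and give messages that end in a conserved stem-loop in place of a poly(A) tail. Replacement variants are transcribed through the cell cycle from solitary genes, mostly with introns and a poly(A) tail, and their proteins enter chromatin through dedicated chaperones. Erythroblasts divide a limited number of times while their chromatin condenses, before the nucleus is expelled, and H1f0 is known as the linker histone that accumulates in differentiating cells.

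Sequence features of the 2 kinds of message are shown first. The histone stem-loop is a stem of 6 base pairs closed by a loop of 4 bases, and it was searched for in the GENCODE M21 transcripts (mm10), along with the poly(A) signals AATAAA and ATTAAA in the last 100 bases. Of the 10 variant genes, H2afx was the only one with a stem-loop in any transcript, 1 of 43 transcripts. Every variant gene had a poly(A) signal in the last 100 bases of at least 1 transcript, AATAAA in 9 and ATTAAA alone in H2afx. By transcript, AATAAA lay there in 39.1% of the 23 protein-coding transcripts of the variant genes, against 42.4% of all 58797 protein-coding transcripts, and in 13 of all 43. The stem-loop lay anywhere in 0.255% of protein-coding transcripts, and in at least 1 transcript of 42 of the 63 annotated replication-dependent genes. In the last 100 bases it lay in 23 of the 63, and AATAAA or ATTAAA lay there in 14 of the 63. In these annotated transcripts the features thus did not wholly separate the 2 kinds. Sequence past an annotated end was not searched, so a gene without a match is not shown to lack a stem-loop. Among those without a match, Hist1h4k is annotated with only 312 bases, Hist1h2bl with 381 and Hist1h3h with 411. Hist1h2aj and Hist1h2al, also without a match, are annotated as pseudogenes. In H2afx the stem-loop (chr9:44335240-44335255, plus strand, in the 3′ untranslated part of its only exon) lay 46 bases past the stop codon, and 822 bases followed it to the annotated end. H2afx messages are known to end either at the stem-loop or at the distal poly(A) signal, and the annotated transcript is the long form. The stem-loop of H2afx is set below beside those of 4 replication-dependent genes (the most abundant H2A pair, an H3 and an H1), with the stem and loop in capitals and up to 5 flanking bases on each side in lower case.
H2afx: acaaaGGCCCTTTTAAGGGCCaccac
Hist1h2ap: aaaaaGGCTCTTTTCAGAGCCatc
Hist1h2ao: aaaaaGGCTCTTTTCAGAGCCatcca
Hist1h3b: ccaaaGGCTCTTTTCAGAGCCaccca
Hist1h1c: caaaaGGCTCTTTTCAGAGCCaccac
The 4 replication-dependent genes shown share all 16 bases of stem and loop, and H2afx differs from them at 3 positions. Of these 4, Hist1h2ap, Hist1h2ao and Hist1h3b end 3, 31 and 51 bases after the stem-loop in the annotation, whereas Hist1h1c runs on for 840 bases.

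A promoter window of 300 bases (250 before to 50 after the transcription start) from RefSeq (GRCm38.p6) was matched for 9 of the 10 genes. Most were GC-rich: the median GC content was 71.3% against 52.7% over all 32851 windows of this length, and Cenpa, at 50.7%, was the only 1 of the 9 under that median. Searched on both strands, CCAAT, the site of the factor NF-Y, was found in 6 of the 9 (37.4% of all windows) and GGGCGG, the GC box, in 8 of the 9 (35.7%). TATAAA was found in H3f3b alone (13.6%), GATAA, a core of the sites bound by GATA factors, in Cenpa alone (25.4%), and CACGTG in H2afz alone (7.15%). CCNCNCCC, the letters of CACC boxes bound by KLF factors, occurred in 7 of the 9 (49.5%) and can overlap GGGCGG on the other strand. TTTGAA, the cell cycle element, occurred in H2afv and Cenpa (17.9%), and GCGGGAA, an E2F site, in none (4.60%). A match describes letters, not binding. The 250 bases before the start are shown for the H2A.Z genes, whose proteins are nearly the same and whose levels lay farther apart in TPM over all transcripts than those of the H3.3 pair or the linker pair, with CCAAT or its complement ATTGG in capitals.
H2afz: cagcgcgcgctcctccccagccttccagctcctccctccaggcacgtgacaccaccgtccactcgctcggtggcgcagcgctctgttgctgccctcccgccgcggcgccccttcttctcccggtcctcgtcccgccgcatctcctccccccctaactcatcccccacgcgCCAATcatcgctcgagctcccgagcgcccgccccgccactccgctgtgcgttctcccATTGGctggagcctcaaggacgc
H2afv: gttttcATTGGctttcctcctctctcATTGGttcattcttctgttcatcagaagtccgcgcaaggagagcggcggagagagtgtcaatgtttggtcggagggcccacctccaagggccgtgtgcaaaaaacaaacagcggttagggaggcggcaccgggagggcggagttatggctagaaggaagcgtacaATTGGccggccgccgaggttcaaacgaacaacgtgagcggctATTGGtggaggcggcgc
The H2afz stretch is chr3:137864237-137864486 on the plus strand and the H2afv stretch is chr11:6444444-6444693 on the minus strand. Both hold the motif, 2 times in H2afz and 4 times in H2afv, the gene with the lower level of message.

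Depth was 51190555 expected counts in library 1 and 44256287 in library 2, and 14155918 and 12299432 without the globin genes. Expected counts are the authors' estimates of reads per gene, in which reads that match several genes were divided among them, and a count of 0 allows up to 3 counts, 0.0586 and 0.0678 CPM (counts scaled to a common library total). Levels are given as TPM, a relative abundance corrected for transcript length that sums to the same total in each library. All 8 erythroblast markers examined had at least 1 TPM in both libraries, with summed levels of 796276 and 813947 TPM. Nearly all of these sums came from the globins Hba-a1 (478231 and 464012 TPM) and Hbb-bs (316734 and 348290 TPM). Of the other markers, Slc4a1 was the highest by mean (589 and 762 TPM) and Gata1 the lowest (37.35 and 48.91 TPM). The summed levels of the marker lists of other liver and blood cells were 8.23 and 10.2 TPM for hepatocytes, 10.9 and 17.2 TPM for macrophages, and 9.74 and 11.1 TPM for neutrophils. They were 10.9 and 13.9 TPM for megakaryocytes, 1.06 and 0.91 TPM for early progenitors, and 0.14 and 0.26 TPM for lymphoid cells. Serpina1b of the hepatocyte list and Cd3e of the lymphoid list had 0 counts in both libraries. The part of such cells in the results was not tested, and in bulk RNA fewer cells of a type and less RNA per cell cannot be told apart.

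The variant genes spanned a 1512-fold range of level. Of the 10 genes, 9 had at least 1 TPM in both libraries, against 20.0% of all 21474 protein-coding genes, and H1fx lay below it. Together they held 1720 TPM in library 1 and 1969 TPM in library 2, which was 1.23% and 1.26% of the TPM outside the globin genes. H3f3a, H2afx and H2afz alone made up 83.2% and 83.0% of those sums. In decreasing order of the mean the genes were H3f3a, H2afx, H2afz, H3f3b, H2afj, Cenpa, H1f0, H2afv, H2afy and H1fx. Of the 9 pairs of neighbours in this order, 7 had ranges over the 2 libraries that did not overlap. The ranges of H2afx and H2afz overlapped, as did those of H2afv and H2afy. Within each library H2afx stood above H2afz (370 against 293 TPM in library 1, 492 against 442 TPM in library 2). H2afv was below H2afy in library 1 (4.54 against 4.92 TPM) and above it in library 2 (8.47 against 4.59 TPM).

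**Figure D1:**
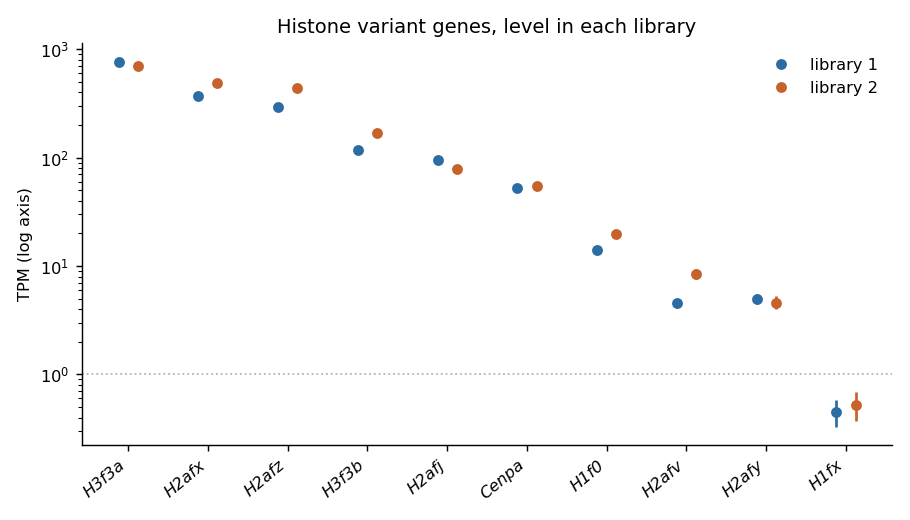
Level of each variant gene in each library, in TPM on a log axis, with the genes in decreasing order of the mean. Points are the deposited TPM, vertical lines the interval bounds deposited by the authors (hidden by most points), and the dotted line is 1 TPM. H3f3a stands highest at 767 and 700 TPM, and H1fx lies under the line at 0.45 and 0.52 TPM.

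H3.3, the replacement form of H3 that marks active genes and is also laid down at telomeres and pericentric repeats, was the most abundant variant message by TPM over all transcripts. H3f3a (chr1:180800832-180813943, minus strand) reached 767 and 700 TPM in libraries 1 and 2, the order of every pair of values here, from 50321 and 35954 counts. Its mean of 733 ± 48.1 TPM (SD, n = 2, as for every mean here) placed it 29th among protein-coding genes. H3f3b (chr11:116021912-116027962, minus strand), the second gene for the same protein, stood at 118 and 169 TPM, from 8245 and 9238 counts. H3f3a was the higher of the pair in both libraries, 6.51-fold in library 1 and 4.13-fold in library 2, and the 2 genes did not overlap. H3f3b therefore supplied 13.3% and 19.5% of H3.3 TPM, a mean of 16.4% ± 4.37. The pair went in opposite directions between the libraries: scaled counts of H3f3a were lower in library 2 (log2 ratio -0.29) and those of H3f3b were higher (log2 ratio 0.36).

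The transcripts assigned to the H3.3 genes were mostly annotated as non-coding. For H3f3a, 90.3% and 86.6% of TPM went to H3f3a-202, a retained-intron transcript of 807 bases, and 8.01% and 10.2% to the coding H3f3a-201 of 888 bases. H3f3a-202 covers 69.1% of the coding bases of the gene and has 369 bases outside the exons of the coding transcripts, so reads from the shared exons fit both. Whether its share reflects the cells or the division of reads by the quantifier was not tested, and the same holds for the values on protein-coding transcripts alone. For H3f3b, 73.0% and 55.0% of TPM went to H3f3b-203, a processed transcript (annotated without an open reading frame), and 22.0% and 42.1% to H3f3b-204, another processed transcript. The coding H3f3b-201 held 5.03% and 2.97%. The share of the leading H3f3b transcript differed between the libraries by 18.0 percentage points, while the leading H3f3a transcript differed by 3.67 points. Summed over protein-coding transcripts alone, H3f3a would have 74.7 and 93.8 TPM and H3f3b 5.93 and 5.04 TPM, so the H3f3b share would be 7.36% and 5.10%.

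H2afx, the variant that is phosphorylated around DNA breaks, was the most abundant H2A variant and, by TPM over all transcripts, the second of all 10. By CPM, and by TPM of protein-coding transcripts alone, it was the first of the 10, with H3f3a the second and the fourth. H2afx (chr9:44334694-44336077, plus strand) stood at 370 and 492 TPM, from 44958 and 46793 counts in a single transcript of 1384 bases. Its mean was 431 ± 86.5 TPM. Its range over the libraries overlapped that of H2afz, although H2afx was the higher of the 2 within each library. Of the kinases in the list of genes that act on H2afx, Atm had 17 and 13 counts, Atr 15 and 5, and Prkdc 40 and 31, whereas Baz1b had 1568 and 1546. The first 3 were named after their values were seen.

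H2A.Z, the variant at the nucleosomes flanking active promoters, came almost wholly from H2afz. H2afz (chr3:137864487-137866922, plus strand) stood at 293 and 442 TPM, from 14191 and 13646 counts. H2afv (chr11:6427229-6444443, minus strand), which encodes the second H2A.Z protein, stood at 4.54 and 8.47 TPM, from 559 and 660 counts. H2afz supplied 98.5% and 98.1% of H2A.Z TPM and exceeded H2afv 64.5-fold and 52.1-fold. Counted without length correction the excess was 25.4-fold and 20.7-fold, with mean transcript lengths of 637 and 542 bases for H2afz and 1401 and 1159 bases for H2afv.

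The size of the H2afz difference between the libraries depended on the unit. Its TPM ratio was 1.51 and its CPM ratio 1.11, and the mean effective length used for the gene fell from 495 to 406 bases. That length follows the transcripts: H2afz-205, 361 bases long and annotated as a processed transcript, had 14.3% of TPM in library 1 and 38.1% in library 2. The coding H2afz-207 of 810 bases took 47.3% and 27.1%, and the coding H2afz-206 of 437 bases took 31.6% and 27.99%. H2afz-201, which alone among these 4 holds the whole open reading frame, took 2.35% and 1.60%. H2afz was the only gene examined whose leading transcript by TPM changed between the libraries, and by counts H2afz-207 led in both. For H2afv, both transcripts are coding, and the shorter H2afv-201 held 20.9% and 42.6% of TPM, on 34.9 and 105 counts.

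H2afj, a mammalian H2A variant close in sequence to the replication-dependent H2A, and H2afy, which encodes macroH2A with its large non-histone domain, lay far apart. H2afj (chr6:136808244-136810074, plus strand) stood at 95.8 and 78.6 TPM, from 15796 and 10119 counts, with a mean of 87.2 ± 12.2 TPM. H2afy (chr13:56073619-56136361, minus strand) stood at 4.92 and 4.59 TPM, from 373 and 299 counts. MacroH2A is associated with silent chromatin, and its second gene, H2afy2, was at 0 counts throughout, a level of at most 0.0586 and 0.0678 CPM. Of H2afy TPM, 81.1% and 62.0% went to the processed transcript H2afy-204. The coding H2afy-201 and H2afy-202, which differ by a mutually exclusive exon, held 4.16% and 7.98%, and 1.54% and 7.14%, on at most 53.4 counts each.

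Among linker histones, which bind the nucleosome at the entry and exit of DNA, H1f0 was well above H1fx. H1f0 (chr15:79028450-79030504, plus strand) stood at 14.0 and 19.7 TPM, from 2942 and 3227 counts. H1fx (chr6:87980421-87981637, minus strand) stood at 0.45 and 0.52 TPM, from 47 and 43 counts, and ranked 5763rd among protein-coding genes. The H1f0 level exceeded that of H1fx 31.1-fold and 37.9-fold in TPM, and 62.6-fold and 75.0-fold by CPM without length correction. The linker pair was thus farther apart than the H2A.Z pair by CPM, and in library 2 also by TPM of protein-coding transcripts (37.9-fold against 29.5-fold). Both are genes of 1 exon with 1 transcript in the tables. Gm5577, annotated antisense over H1fx, had 0 counts in both libraries.

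Cenpa, the H3 variant that marks the centromere and whose message is made mainly in G2, was the sixth of the 10 by level. Cenpa (chr5:30666777-30674830, plus strand) stood at 52.2 and 54.3 TPM, with 4623 and 3447 counts. The mean of 53.2 ± 1.45 TPM placed it 352nd among protein-coding genes, and its deposited TPM intervals overlapped between the libraries. By CPM, which has no length correction, library 2 was lower, with a ratio of 0.862. Its leading transcript was Cenpa-202, annotated as a target of nonsense-mediated decay, with 50.34% and 50.04% of TPM. The coding transcripts Cenpa-206 and Cenpa-205 followed with 18.2% and 26.7%, and with 22.6% and 18.1%.

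Of the 9 genes with a minimum of 50 counts in each library, 6 had more than 1 transcript, and 5 of these 6 had the same leading transcript by TPM in both libraries. In 4 of the 6 (H3f3a, H3f3b, Cenpa and H2afy) the leader was not annotated as protein-coding. Protein-coding transcripts held 81.2% and 56.7% of TPM in H2afz, 40.8% and 44.8% in Cenpa, and 5.69% and 15.3% in H2afy. The classes come from GENCODE M21, while the authors used the older M4 annotation of the same assembly, and some transcripts, Cenpa-202 among them, differ in length between the releases (1151 and 1031 bases).

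**Figure D2:**
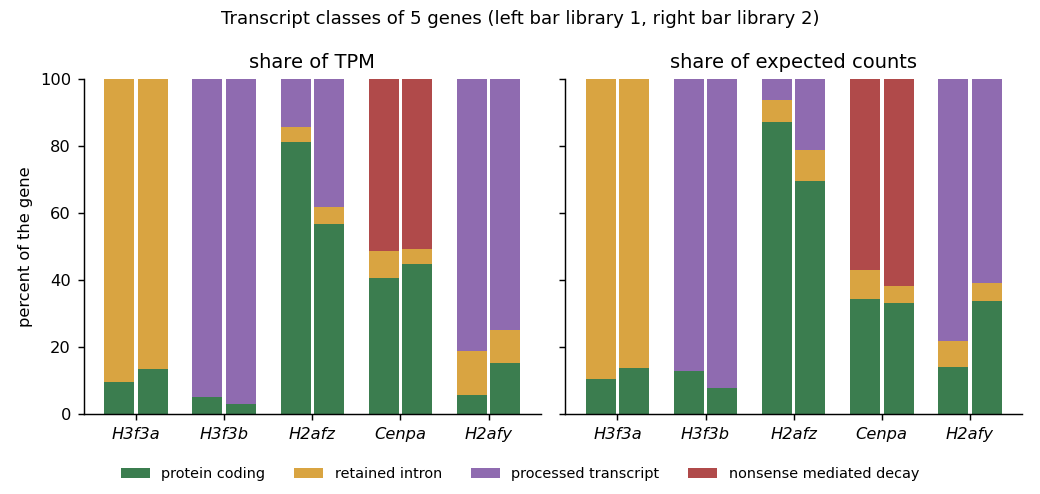
Share of each gene assigned to each class of transcript, in percent of TPM (left) and of expected counts (right), with the left bar of each pair for library 1 and the right bar for library 2. Non-coding classes fill most of H3f3a, H3f3b and H2afy in both units, and the processed transcript class of H2afz is 14.3% of TPM in library 1 and 38.1% in library 2.

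Variant genes share sequence with pseudogenes and with the clustered genes, which bears on how firmly reads were assigned. Of the 31-base words in H2afz transcripts, 42.3% also occur in transcripts of another gene, against 29.97% for H3f3a and 0.981% for H2afv. For the other 7 genes the share ran from 2.70% in Cenpa to 15.4% in H1fx. No other gene held 50% or more of the words of a variant gene. In the other direction, 13 genes had 50% or more of their own words within H2afx and 2 within H2afj, none of them analysed here. For H3f3a there were 9 such genes. Of these, 5 were in the tables, with 42.6 and 31.7 counts in all, which is 0.0847% and 0.0880% of the H3f3a counts. For H2afz there was 1 such gene, with 33.5 and 62.3 counts, 0.236% and 0.457% of H2afz. The deposited posterior SD of the counts was at most 8.69 for any of the 10 genes, and 5 of the 10 had whole counts (within 0.01) in both libraries.

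Variant messages, by TPM over all transcripts, were most of H3, a small part of H2A and a minor part of H1. The comparison is with the replication-dependent genes of the same class in this poly(A)-selected RNA. H3f3a and H3f3b made up 77.5% of H3 TPM in library 1 and 88.6% in library 2, a mean of 83.0% ± 7.82. On protein-coding transcripts alone the H3 share was 23.9% and 46.8%. The most abundant replication-dependent H3 genes were Hist2h3b (71.5 and 29.9 TPM), Hist1h3h (63.2 and 31.5 TPM) and Hist1h3i (37.5 and 17.3 TPM). Each was below H3f3b by TPM over all transcripts. H3f3b on its coding transcripts alone had 5.93 and 5.04 TPM, below each of these genes. The 5 H2A variants made up 4.42% and 6.11% of H2A TPM, because Hist1h2ap (10111 and 9178 TPM) and Hist1h2ao (5954 and 6168 TPM) took most of it. The third, Hist1h2ah, had 57.7 and 114 TPM, and without the leading pair the variant share was 59.0% and 71.7%. H1f0 and H1fx made up 9.54% and 19.9% of H1 TPM, beside Hist1h1c (95.7 and 61.9 TPM), Hist1h1e (23.6 and 8.63 TPM) and Hist1h1d (11.2 and 6.66 TPM). In all 3 classes the variant share was higher in library 2. Poly(A) selection keeps little of a message that ends at a stem-loop, so these are shares of the selected RNA and not of all histone message. Clustered genes are near-identical copies, so the level of each is uncertain.

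**Figure D3:**
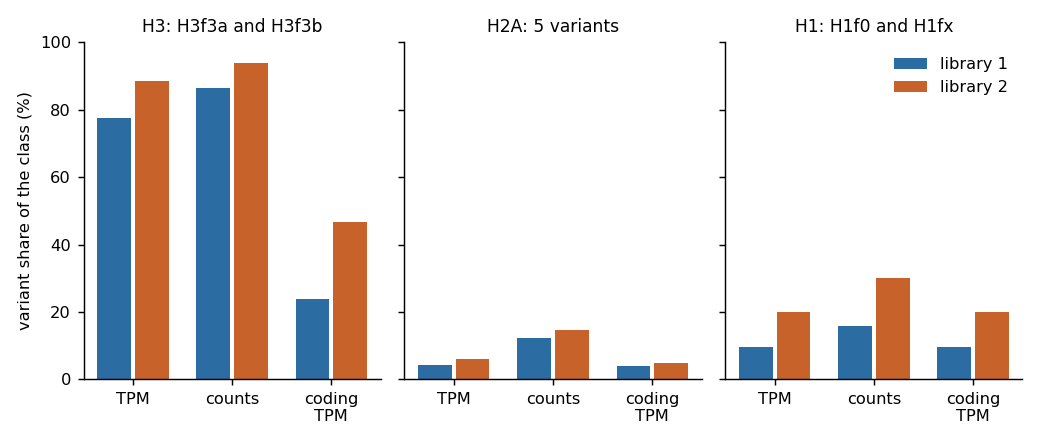
Variant genes as a percentage of all messages of their histone class in each library, by TPM, by expected counts, and by TPM of protein-coding transcripts alone. The H3 share falls from 77.5% and 88.6% by TPM to 23.9% and 46.8% when the non-coding transcripts of H3f3a and H3f3b are left out, and it is higher in library 2 in every setting shown.

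The libraries were compared gene by gene with a two-sided exact binomial test on the scaled counts, with Benjamini-Hochberg adjustment over 10955 genes. This test covers counting error only and compares 2 libraries, not conditions. Of the 10 variant genes, 8 differed at an adjusted p under 0.05, against 44.9% of all genes tested and 70.7% of the 2689 genes whose counts summed to 1000 or more. The 8 are those of the 10 that have 1000 or more counts. Higher in library 1 were H3f3a, H2afj and Cenpa (22.5% of all genes), and higher in library 2 were H2afx, H2afz, H3f3b, H1f0 and H2afv (22.4%). H2afy (log2 ratio -0.13, adjusted p = 0.378) and H1fx (0.06, adjusted p = 0.895) did not pass the exact test.

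The differences were small beside the median of each class of clustered genes. The log2 ratio of library 2 over library 1 ran from -0.45 for H2afj (adjusted p = 6.8e-134, exact binomial test) to 0.43 for H2afv (adjusted p = 1.39e-06). The median absolute log2 ratio was 0.27 for the variant genes and 0.24 for the 5256 genes that had 100 counts in each library. The median signed ratio of the variant genes was 0.10, against -0.01 for all genes tested. Of the 58 replication-dependent genes tested, 48 differed, 45 of them higher in library 1 and 3 higher in library 2, and their median log2 ratio was -1.04. By class the median was -1.39 for H3, -0.89 for H2A, -0.95 for H2B, -1.19 for H4 and -0.91 for H1. The lowest variant ratio, that of H2afj, was thus nearer 0 than the median of every clustered class. These medians weigh each gene alike. Hist1h2ap and Hist1h2ao, which held most of the clustered TPM, lay within the range of the variant genes, at -0.28 and -0.09. Summed over all clustered genes the level was 17430 TPM in library 1 and 16242 TPM in library 2.

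**Figure D4:**
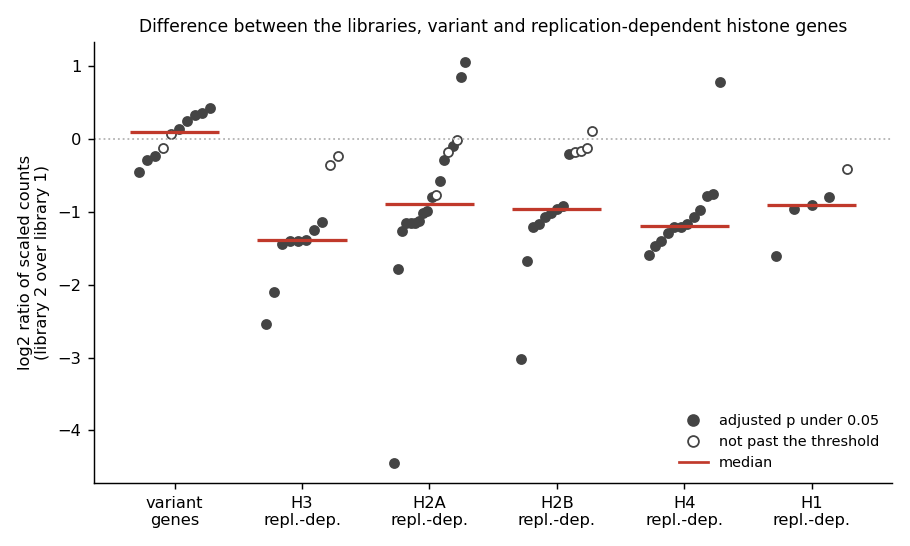
Log2 ratio of scaled counts, library 2 over library 1, for the variant genes and for the replication-dependent (repl.-dep.) genes by class. Filled points passed an adjusted p of 0.05, open points did not, and red lines are medians. Variant genes lie between -0.45 and 0.43, while the clustered classes have medians from -1.39 to -0.89.

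By TPM over all transcripts, every listed gene that places H3.3 into chromatin stood below both H3.3 genes. Of 7 such genes (the HIRA complex, Asf1a, Daxx and Atrx), 4 had at least 1 TPM in both libraries, against 20.0% of all protein-coding genes. The median of the 7 was 1.23 TPM. These TPM include the globin genes, and with those left out every value would be higher (for H3f3a 5487 and 4490 TPM). Cabin1, a subunit of the HIRA complex, led with 9.11 and 12.8 TPM, followed by Ubn1 (1.71 and 2.43 TPM) and Daxx (1.43 and 1.53 TPM). On its protein-coding transcripts alone H3f3b had 5.93 and 5.04 TPM, which is below Cabin1. Atrx, the remodeller that works with Daxx, was lowest at 0.35 and 0.43 TPM. Between the libraries, 4 of the 7 differed, 2 in each direction. Of all genes tested 44.9% differed, and of those with 1000 or more summed counts 70.7%. The counts of the lists below are to be read beside these shares. The chaperones that serve H3 and H4 at the replication fork stood higher: all 5 passed 1 TPM, with a median of 9.55 TPM. Asf1b stood at 57.7 and 68.0 TPM, and the chromatin assembly factor subunits Chaf1b at 20.3 and 25.3 TPM and Chaf1a at 7.39 and 11.7 TPM. Nasp was lowest, at 1.59 and 2.07 TPM. Of these 5, 1 was higher in library 1 and 3 in library 2.

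Most genes that exchange H2A.Z were expressed. Of 13 genes, 10 had at least 1 TPM in both libraries, with a median of 5.57 TPM. Znhit1, a subunit of the SRCAP complex that deposits H2A.Z, led at 60.8 and 93.2 TPM. Anp32e, a chaperone that removes H2A.Z, followed at 36.0 and 33.7 TPM, and Vps72, which binds H2A.Z within the SRCAP complex, stood at 18.5 and 19.1 TPM. Without length correction Anp32e was above Znhit1, with 4803 and 3844 counts against 2918 and 3696. Actr6 was lowest, with 3 counts in library 1 and 0 in library 2. Of the 12 tested, 3 were higher in library 1 and 5 in library 2 (22.5% and 22.4% of all genes tested). The chaperones of H2A and H2B all passed 1 TPM, 5 of 5. Of these, Ssrp1, a subunit of FACT, stood at 11.2 and 11.5 TPM, Nap1l1 at 8.36 and 6.88 TPM, Nap1l4 at 5.17 and 6.46 TPM, and the other FACT subunit, Supt16, was lowest at 2.70 and 2.31 TPM. By the test, 3 of the 5 were higher in library 1 and 1 in library 2.

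By TPM over all transcripts, Cenpa stood above every gene of its loading list. On its protein-coding transcripts alone Cenpa had 21.3 and 24.3 TPM, which is below Cenpb, and Cenpb also had more counts (13091 and 13063 against 4623 and 3447). Of 7 genes, 5 had at least 1 TPM in both libraries. Cenpb, which binds a motif in centromeric repeats, was the highest at 28.2 and 36.1 TPM. Oip5, a Mis18 subunit, stood at 6.30 and 4.13 TPM, and Hjurp, the chaperone of Cenpa itself, at 2.18 and 1.22 TPM. Cenpc1 was lowest at 0.38 and 0.34 TPM. Oip5 and Hjurp were the 2 genes of the list that were higher in library 1, as Cenpa was by scaled counts. In library 2, 2 others were higher. Of all genes tested, 22.5% were higher in library 1 and 22.4% in library 2.

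H2afx was far above the genes that act on its phosphorylation, of which 2 of 8 had at least 1 TPM in both libraries. These were Baz1b, a kinase of a tyrosine of H2afx, at 2.52 and 3.19 TPM and Trp53bp1, a repair factor recruited to breaks, at 2.41 and 2.83 TPM. Mdc1, which binds phosphorylated H2afx, stood at 0.77 and 0.82 TPM, and Eya1, a phosphatase, was lowest with 0 and 8 counts. Of the 7 tested, 1 was higher in library 1 and 2 in library 2 (22.5% and 22.4% of all genes tested). The 6 genes for proteins that share nucleosome sites with linker histones all passed 1 TPM, with a median of 41.6 TPM. Hmgn2 stood at 90.3 and 120 TPM, Hmgb1 at 100 and 72.2 TPM and Hmga1 at 44.1 and 70.5 TPM, each above H1f0. The lowest, Parp1, stood at 3.51 and 4.53 TPM. Of the 6, 3 were higher in library 1 and 2 in library 2.

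**Figure D5:**
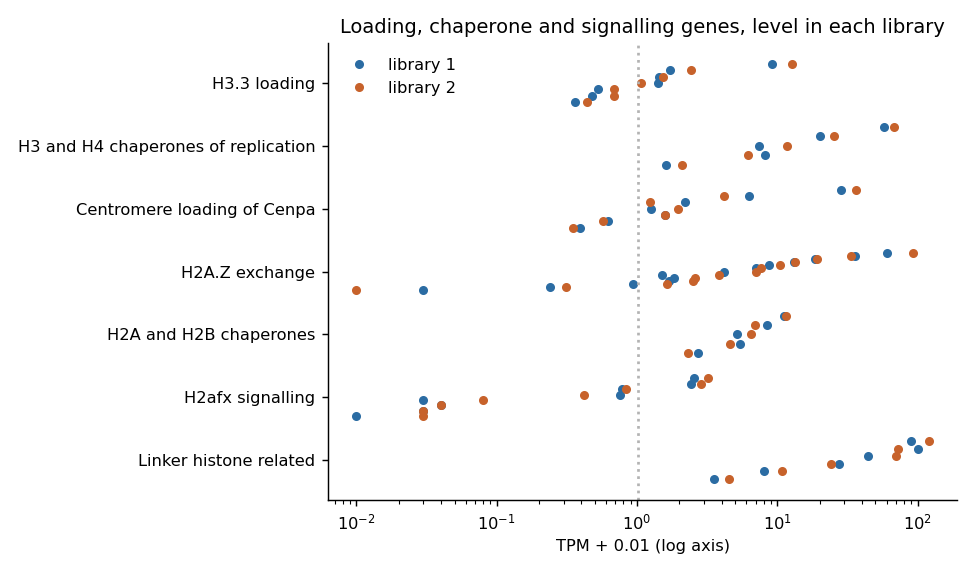
Level of each gene of the loading, chaperone and signalling lists in each library, as TPM + 0.01 on a log axis, with 1 row of points per list. The dotted line marks 1 TPM. All genes of the replication chaperone, H2A and H2B chaperone and linker-related lists lie to its right, whereas 6 of the 8 H2afx signalling genes do not in both libraries.

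Most other histone variants and solitary histone genes had no counts at this depth. Of 14 examined, 9 had 0 counts in both libraries, among them the short H2A variants and the spermatid linker histones H1fnt and Hils1. Of all 43346 genes, 16803 had at least 1 rounded count in the 2 libraries together, so 0 counts were common generally. Hist3h2ba stood at 5.20 and 6.15 TPM, Hist3h2a at 1.56 and 6.47 TPM and Hist4h4 at 2.58 and 1.89 TPM. Hist3h2a differed more between the libraries than any of the 10 variant genes, with a log2 ratio of 1.88. The oocyte linker histone H1foo had 0 and 3 counts, and the testis linker histone Hist1h1t had 8 and 1. The genes of this group with 8 counts or fewer were named after their values were seen.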

How the data were processed

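Poly(A) RNA of 2 erythroblast libraries was analysed from the authors' tables of genes and transcripts, 1 of each per library. Per the listing deposited with the tables, the assembly was mm10 and the annotation GENCODE M4. The aligner, the quantifier and the use of strand were not given in the sources used here. Column names are those of RSEM, per the file headers. The expected counts were made by the authors, with shared reads divided among genes, and are not normalized. TPM, posterior mean TPM and FPKM were computed and deposited by the authors and correct for effective length. The percent of a gene's TPM in each transcript was also computed and deposited by the authors. The deposited posterior SD and interval bounds are treated as scores, and the level of the intervals is not given in the sources used here.

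Genes were matched by Ensembl identifier without version to GENCODE M21 of the same assembly, which supplied symbols, positions, transcript classes and transcript sequences; promoters came from RefSeq. Expected counts were rounded, and library sizes scaled with edgeR 4.0.16 (TMM over all genes, factors 0.993 and 1.01, R 4.3.3). The two-sided exact binomial test was run on the 10955 genes with 10 or more counts over both libraries, adjusted by Benjamini-Hochberg, with a threshold of 0.05; 5591 genes had an unadjusted p under 0.05. Log2 ratios used a prior count of 0.5. The test was also tried on simulated libraries that held counting error alone, with no spread between replicates. Alternatives were DESeq2 1.42.0 size factors, total counts, factors without globins, count minima of 1 and 50, FPKM, posterior mean TPM, CPM, TPM without globins, protein-coding transcripts alone, other TPM thresholds and each library alone. Python 3.11.15 with numpy 2.4.6, pandas 2.3.3, scipy 1.17.1 and matplotlib 3.10.9 was used for the rest.

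The 10 genes and all lists were chosen with earlier results of these data known. The text names all 10 genes, the 3 highest of the clustered H3, H2A and H1 lists, and the 3 highest and the lowest of each loading, chaperone, signalling, linker-related and other-variant list by mean TPM; others were chosen after their values were seen. Of the clustered H2B genes listed, 3 of 16 were not analysed here, and neither were the proteins.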

Additional observations from a re-analysis of the deposited data

How the results depend on the processing

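The order of the 10 levels and the class shares depended on length correction and on which transcripts were summed. With protein-coding transcripts only, 2 of the 10 genes kept their place in the order, the H3f3b share of H3.3 was 6.23%, the H2afz share of H2A.Z was 97.4% and the variant share of H3 was 35.3%. By CPM, 6 of the 10 kept their place. By expected counts the H2afz share was 95.8%, the variant share of H2A was 13.5% and that of H1 was 23.0%. Without Hist1h2ap and Hist1h2ao the variant share of H2A was 65.4%. The other 41 alternative values of these shares, orders and counts stayed within 1 SD of the main value or, for counts, within 1.5 times. For the shares of each library alone this had to be so, because each of 2 values lies within 1 SD of their mean. The count of variant genes that differed between the libraries was 8, with 3 higher in library 1 and 5 in library 2, under each of the 5 alternatives, while calls over all genes ran from 4238 to 4976. Each library alone gave an H3f3b share of 13.3% to 19.5%, and variant shares of 77.5% to 88.6% for H3, 4.42% to 6.11% for H2A and 9.54% to 19.9% for H1; the H2afz share ran from 98.1% to 98.5%. No paired analysis was possible because there is only 1 group. With 2 libraries, an SD is itself poorly known, and for H1fx, with 47 and 43 counts, and the transcripts of H2afy the depth limits what can be read. The planned comparison of proteins was not run.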
